A study of Mus musculus with 32 samples.

Results

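The rearranged heavy-chain genes of normal pro-B cells were compared between 3 groups of variable (V) genes, the VH families Vh558, Vh7183 and Vhq52. The members are the 673 WT entries, of 930 in the deposited series table, whose library matched a labelled WT sample; no knockout library entered a comparison. They came from 16 libraries of 5 mice: 476 entries from 6 Vh558 libraries of 4 mice, 104 from 5 Vh7183 libraries of 5 mice and 93 from 5 Vhq52 libraries of the same 5 mice. Each entry is a clonotype, a distinct nucleotide sequence of the third complementarity-determining region (CDR3) with the number of reads that carried it.

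The study set mice lacking Setd2, an H3K36 methyltransferase, against control mice, and the WT controls analysed here are mice 1418, 1432, 1484, 1485 and 1536. Untreated pro-B cells were sorted from bone marrow at 8 weeks of age as B220+ Cd43+ cells lacking IgM and CD25; strain, sex and the means of the knockout were not given in the sources used here. Genomic DNA was amplified with a primer for one VH family and a primer at JH4, and a band of 500 base pairs was cut from a gel and sequenced. The labels name genomic DNA as the template, but their library protocol also names a poly-A selection and an RNA kit, so what entered the library is not settled by the labels. All 3 amplicons were made from mice 1418, 1432, 1485 and 1536, and no Vh558 library of mouse 1484 was analysed here.

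A pro-B cell first joins a D to a JH segment and then a V to that DJ join. Nucleases trim the opened ends, hairpin opening can leave short palindromic bases, and terminal deoxynucleotidyl transferase adds bases without a template, so the CDR3 is made of a V end, inserted bases, D bases and a J start. The Vh7183 and Vhq52 families lie close to the D segments, whereas the large Vh558 family reaches to the far end of the locus. DFL16 lies near the outer end of the D segments and DQ52 lies next to JH1, while the DSP2 segments lie between them. DST4 is a further D family.

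The V genes matched the amplicon labels in Vh558 and Vhq52, and for most clonotypes in Vh7183. All 476 Vh558 clonotypes were IGHV1 and all 93 Vhq52 clonotypes were IGHV2. Of the 104 Vh7183 clonotypes, 93 were IGHV5, 8 were IGHV6 and 3 were IGHV7. The IGHV6 and IGHV7 clonotypes were kept in the Vh7183 values below. Of the 476 Vh558 clonotypes, 446 came from mice 1418 and 1536, so pooled counts mostly describe these mice. Both mice had repeat Vh558 libraries, and pooled counts hold a sequence found in both libraries of a mouse once for each. This applied to 20 sequences of mouse 1418 and 7 of mouse 1536. The most frequent Vh558 genes were IGHV1-26 with 80 clonotypes, IGHV1-55 with 46, IGHV1-72 with 43, IGHV1-18 with 34 and IGHV1-19 with 32. In mouse 1432 IGHV1-69 led with 6 clonotypes, and in mouse 1485 IGHV1-72 led with 3. In Vh7183, IGHV5-4 had 18, IGHV5-6 had 16, IGHV5-17 had 15, IGHV5-12 had 11 and IGHV5-2 had 10. Vhq52 was led by IGHV2-2 with 41 clonotypes, or 44.1% of the family, then IGHV2-3 with 21, IGHV2-9-1 with 13 and IGHV2-5 with 9, while IGHV2-6 and IGHV2-9 had 4 each.

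The V ends that enter the CDR3 differ between the families, and they are shown here because trimming and the first residues are read against them. Each is the most common end among clonotypes of that gene that lost 0 V bases. It runs 5′ to 3′ from the conserved cysteine codon, and the codon of CDR3 position 3 is in capitals.
IGHV1-26 (Vh558): tgtgcaAGA
IGHV5-4 (Vh7183): tgtgcaAGA
IGHV5-17 (Vh7183): tgtgcaAGG
IGHV5-2 (Vh7183): tgtgcaAGAca
IGHV2-2 (Vhq52): tgtgccAGAaa
IGHV2-3 (Vhq52): tgtgccAAAcc
IGHV2-5 (Vhq52): tgtgccAAAaa
IGHV2-9 (Vhq52): tgtgccAAAc
By the deposited alignments the V reference gave 9 bases to the CDR3 in all 476 Vh558 clonotypes and in 86 of 104 Vh7183 clonotypes. In Vhq52 it gave 11 bases in 85 of 93. Position 3 is read from an arginine codon in most of these genes and from a lysine codon in IGHV2-3, IGHV2-5 and IGHV2-9.

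The depth was uneven. A Vh558 library held 7 to 188 clonotypes on 612 to 6927 reads, a Vh7183 library 13 to 35 on 1033 to 1457 reads and a Vhq52 library 10 to 28 on 2012 to 7585 reads. For a share near the middle of the scale, counting error alone gave a 95% Wilson half-width of 7.08 percentage points in the largest library and 29.6 points in the smallest, the Vh558 library of mouse 1485 with its 7 clonotypes. PCR reads without molecular identifiers are not independent molecules, so such intervals cover counting error only. Vh7183 and Vhq52 were each sequenced in 1 batch and Vh558 in 3 others, so family and sequencing batch cannot be told apart.

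Some libraries of different mice held the same CDR3 nucleotide sequence. Mice 1432 and 1484 shared 9 sequences in Vh7183, which were 9 of 20 and 9 of 35 clonotypes and carried 61.3% and 36.4% of the reads. Mice 1418 and 1536 shared 7 sequences in Vhq52, which were 7 of 15 and 7 of 25 clonotypes and carried 44.9% and 79.6% of the reads. Mice 1484 and 1536 shared 1 more, and no sequence was shared between WT mice in Vh558 or between amplicons. These 3 examples show that the shared joins include ones with several inserted bases, which are in capitals.
IGHV5-9, IGHD2-6, IGHJ4: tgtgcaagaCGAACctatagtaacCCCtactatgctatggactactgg
IGHV5-17, IGHD4-1, IGHJ4: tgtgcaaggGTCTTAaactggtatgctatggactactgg
IGHV2-9, no D, IGHJ4: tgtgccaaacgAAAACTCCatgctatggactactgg
The first had 134 reads in mouse 1432 and 107 in mouse 1484, the second 54 and 129, and the third 3374 in mouse 1418 and 2 in mouse 1536. Knockout libraries served only to find further shared sequences. Counting those, 9 of the 15 Vhq52 clonotypes of mouse 1418 and 96.7% of its reads were shared. Several results below are also given without every sequence held by more than 1 mouse of the series.

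Families were compared within mice by an exact permutation test of the family labels over 2592 arrangements, 2-sided by construction, on 1 value for each mouse and family (14 values; repeat libraries averaged). Of 32 repertoire and junction measures, 6 had an exact p at or under 0.05 (18.8%): V bases lost, V ends untrimmed, V bases kept, the IGHJ2 share, arginine at position 3 and the in-frame share. Bases lost, ends untrimmed and bases kept describe the same V end, and arginine at position 3 also depends on it. The 6 are therefore not separate differences. Of the 32, 0 (0%) had a Benjamini-Hochberg adjusted p at or under 0.05. Of 20 amino acids, 4 (20%) were under 0.05 before adjustment, namely lysine, arginine, tryptophan and serine, and 0 (0%) after it. Of 11 D genes, 0 (0%) were under 0.05 before or after it. No difference below therefore passed the adjusted threshold unless that is stated. A sign-flip test of 1 pair of families cannot go below 0.125 with 4 mice or 0.0625 with 5, so pairs are given by the range of their differences within mice.

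The V end was the part of the join in which Vhq52 stood furthest from the other families. Clonotypes that had lost 0 V bases made up 74%, 65.2%, 85.7% and 71.5% in Vh558 of mice 1418, 1432, 1485 and 1536. In Vh7183 they were 61.1%, 90%, 85.7%, 92.3% and 72.2% of mice 1418, 1432, 1484, 1485 and 1536, and in Vhq52 they were 40%, 46.7%, 28.6%, 30% and 60%. Every Vhq52 value lay below every value of the other families. Ranges were separate for 1 of the 32 measures between Vh7183 and Vhq52 (3.12%) and for 2 of 32 between Vh558 and Vhq52 (6.25%).

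The means were 74.1% ± 8.58 (SD, n = 4), 80.3% ± 13.2 (SD, n = 5) and 41.0% ± 12.9 (SD, n = 5) in Vh558, Vh7183 and Vhq52 (exact p = 0.0054, adjusted p = 0.0741). Within mice the share was 12.2 to 62.3 percentage points higher in Vh7183 than in Vhq52 in 5 of 5 mice, and 11.5 to 55.7 points higher in Vh558 than in Vhq52 in 4 of 4. Without the shared sequences the Vhq52 mean was 33.7% and the adjusted p was 0.0556. Among IGHJ4 joins alone the means were 70.0%, 76.7% and 44.4% (exact test, adjusted p = 0.287).

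**Figure D1:**
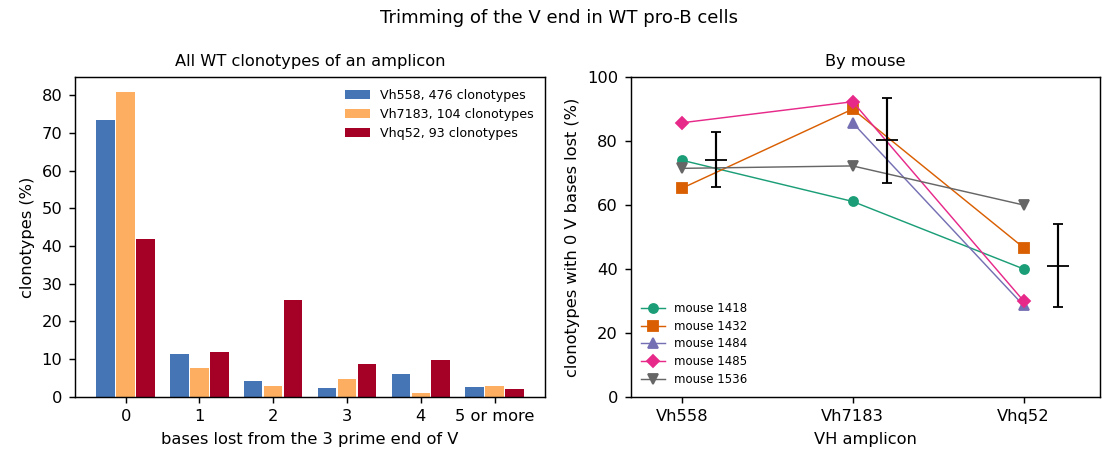
V end trimming. Left, the share of all WT clonotypes of an amplicon (percent) by the number of bases lost from the 3′ end of V; right, the share with 0 bases lost in each mouse, with lines joining the amplicons of a mouse and black bars for the mean ± SD over mice. Vhq52 has 41.9% at 0 and a second peak of 25.8% at 2 bases lost, and its 5 mice (28.6% to 60%) lie below all values of the other amplicons.

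The number of V bases lost was highest in Vhq52. It averaged 0.617 ± 0.373 (SD, n = 4) in Vh558, 0.491 ± 0.355 (SD, n = 5) in Vh7183 and 1.39 ± 0.399 (SD, n = 5) in Vhq52 (exact p = 0.0170, adjusted p = 0.0905). Vhq52 V ends had lost more than those of Vh7183 in 5 of 5 mice and more than those of Vh558 in 4 of 4. The difference of Vh7183 minus Vhq52 ran from -1.49 to -0.00667 bases, and that of Vh558 minus Vhq52 from -1.46 to -0.266. The mean difference of Vhq52 minus Vh7183 was 0.896 bases. It was 0.476 among IGHJ4 joins (exact p = 0.354) and 0.62 weighted by reads (exact p = 0.349). With shared sequences left out it was 0.985 (exact p = 0.0255, adjusted p = 0.163). Over all clonotypes, 24 of 93 Vhq52 V ends had lost exactly 2 bases, against 20 of 476 in Vh558 and 3 of 104 in Vh7183. All 24 were among the 85 ends whose germline contribution was 11 bases, so that 9 remained.

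The V bases left in the CDR3 were also highest in Vhq52. They averaged 8.71 ± 0.475 (SD, n = 4) in Vh558, 9.02 ± 0.286 (SD, n = 5) in Vh7183 and 9.61 ± 0.342 (SD, n = 5) in Vhq52 (exact p = 0.0054, adjusted p = 0.0741). Vhq52 kept more than Vh558 in 4 of 4 mice, with differences of Vh558 minus Vhq52 from -1.54 to -0.114 bases, although it had lost more. Among the 10 IGHV5-2 clonotypes of Vh7183, a gene whose end is also 11 bases long, 6 had lost 0 bases. Among the 41 IGHV2-2 clonotypes 15 had, and among the 21 IGHV2-3 clonotypes 7 had. By end length, 0 bases were lost in 32 of 85 Vhq52 ends of 11 bases, 4 of 4 of 10 bases and 3 of 4 of 9 bases. In Vh7183 the counts were 0 of 3 ends of 13 bases, 6 of 10 of 11 bases and 74 of 86 of 9 bases. In Vh558, where all ends had 9 bases, 10 of 25 IGHV1-74 ends had lost 0. The part of end length in the family difference was not tested.

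Palindromic bases, copied from the V end when its hairpin is opened off centre, were present in 23.3% ± 6.99 (SD, n = 4) of Vh558 clonotypes, 13.3% ± 6.73 (SD, n = 5) of Vh7183 and 9.79% ± 7.64 (SD, n = 5) of Vhq52 (exact p = 0.155, adjusted p = 0.352). Vh558 was above Vh7183 in 4 of 4 mice, by 3.04 to 19.2 percentage points. The ranges of all 3 families overlapped. Only a V end that lost 0 bases can carry palindromic bases, and such ends were fewest in Vhq52. Over all clonotypes, palindromic bases stood on 117 of 350 untrimmed ends in Vh558, 13 of 84 in Vh7183 and 10 of 39 in Vhq52.

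Inserted bases, those assigned to none of the V, D and J parts, were compared next. For clonotypes lacking a D call, the entire gap from the V part to the J part counted as inserted. The sum can therefore include D bases that were not recognised, and is not a count of untemplated bases alone. A D was found in 69.2% of the Vh7183 clonotypes of mouse 1485, the lowest value of any mouse and family. The sum of inserted bases averaged 8.04 ± 1.19 (SD, n = 4) in Vh558, 7.15 ± 0.523 (SD, n = 5) in Vh7183 and 6.12 ± 1.28 (SD, n = 5) in Vhq52 (exact p = 0.1, adjusted p = 0.352). Mouse 1418 had 8.72 in Vh558, 7.89 in Vh7183 and 4.33 in Vhq52, and mouse 1432 had 9.13, 6.55 and 7.80. Mice 1485 and 1536 had 6.43 and 7.87 in Vh558, 6.77 and 7.22 in Vh7183, and 6.20 and 6.64 in Vhq52. Vh558 was above Vhq52 in 4 of 4 mice, by 0.229 to 4.39 bases, and the ranges overlapped. The mean of these differences was 1.79 bases, and 0.931 without mouse 1418.

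Where a D was found, the V to D junction held 4.85 ± 0.472 (SD, n = 4), 4.42 ± 0.682 (SD, n = 5) and 3.55 ± 1.45 (SD, n = 5) inserted bases in Vh558, Vh7183 and Vhq52 (adjusted p = 0.477 by the exact permutation test). The D to J junction, which is made first, held 3.28 ± 0.573, 2.28 ± 1.11 and 2.77 ± 0.447 (adjusted p = 0.253 by the same exact test). The lowest D to J value was 0.333 bases, in the Vh7183 library of mouse 1485. Vh558 was above Vh7183 at that junction in 4 of 4 mice, by 0.617 to 2.17 bases. The V to D difference of Vh558 minus Vhq52 was 1.04 bases, and 0.266 without mouse 1418.

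The J start varied more between mice than between families. It had lost 3.53 ± 1.2 bases (SD, n = 4) in Vh558, 3.50 ± 0.943 (SD, n = 5) in Vh7183 and 3.90 ± 1.63 (SD, n = 5) in Vhq52 (exact p = 0.776, adjusted p = 0.828). The difference of Vh558 minus Vhq52 ran from -2.52 to 2.08 bases over 4 mice and that of Vh7183 minus Vhq52 from -2.45 to 2.56 over 5, so differences of this size in either direction were not resolved. Among IGHJ4 joins the losses were 4.02 ± 0.612, 4.2 ± 0.522 and 4.04 ± 3.46 bases.

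The CDR3 itself had a mean length of 45.1 ± 0.910 bases (SD, n = 4) in Vh558, 44.1 ± 1.15 (SD, n = 5) in Vh7183 and 42.2 ± 3.09 (SD, n = 5) in Vhq52 (exact p = 0.130, adjusted p = 0.352). Of the Vhq52 mice, 3 had values below every other mouse and family, 40.4 in mice 1418 and 1432 and 39.3 in mouse 1485. The other values were 44.9 in mouse 1484 and 46.2 in mouse 1536. Over all clonotypes the CDR3 ran from 7 codons in each family to 26, 23 and 20 codons, with medians of 15, 15 and 14.

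The parts of the CDR3 differed in opposite directions, with any unrecognised D bases counted in the inserted part. In Vh558 and Vhq52 the mean V part was 8.71 and 9.61 bases, the inserted part 8.04 and 6.12, the D part (0 where no D was found) 9.74 and 9.56, and the J part 18.6 and 16.9. IGHJ2 and IGHJ3 give 17 germline bases to the CDR3 where IGHJ4 gives 23. Both had a higher mean share in Vhq52 than in Vh558, as described below, and IGHJ2 was highest in Vh7183. The part of JH usage in the length differences was not tested. Among IGHJ4 joins the lengths were 46.3 ± 1.24 (SD, n = 4), 46.0 ± 1.25 (SD, n = 5) and 44.1 ± 3.29 bases (SD, n = 5).

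**Figure D2:**
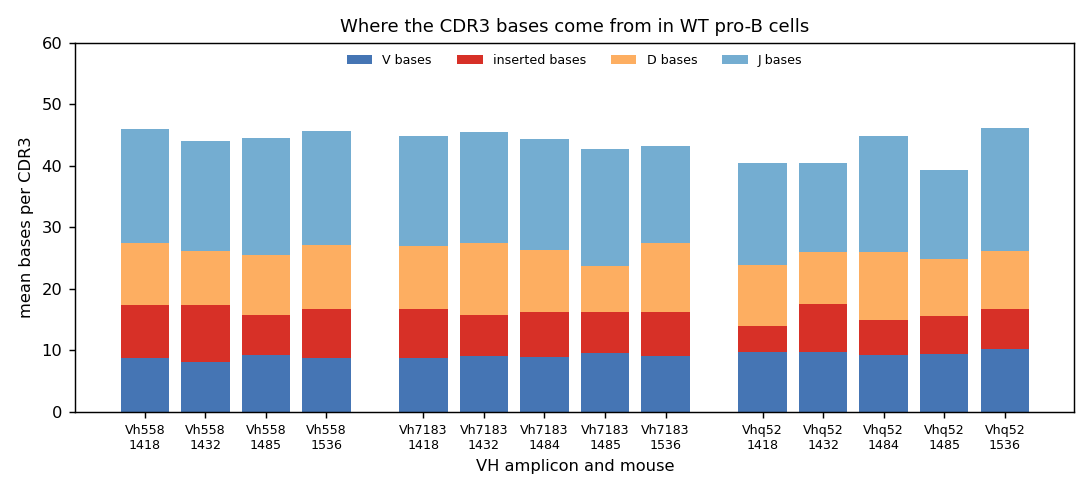
Origin of the CDR3 bases. Each bar is 1 mouse in 1 amplicon, and its colours stack the mean number of bases from V, insertion, D and J. Insertion includes any D bases that were not recognised. Mean CDR3 length was 44.1 to 46.0 bases in Vh558, 42.7 to 45.5 in Vh7183 and 39.3 to 46.2 in Vhq52.

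The largest clonotypes of mouse 1485, which took the highest share of reads of any mouse in each family, show what such joins look like in each family. Inserted bases are in capitals.
Vh558, IGHV1-72, IGHD1-1, IGHJ4: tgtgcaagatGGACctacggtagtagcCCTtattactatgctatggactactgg
Vh7183, IGHV5-4, IGHD1-1, IGHJ4: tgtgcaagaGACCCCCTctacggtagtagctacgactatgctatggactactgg
Vhq52, IGHV2-2, IGHD2-6, IGHJ4: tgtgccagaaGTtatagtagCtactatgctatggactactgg
The first took 4571 of 6488 reads, or 70.5% (95% Wilson interval 69.3 to 71.6), the second 609 of 1438, or 42.4% (39.8 to 44.9), and the third 1262 of 2012, or 62.7% (60.6 to 64.8). The Vh558 and Vhq52 joins had lost 0 and 1 V bases. They carried 7 and 3 inserted bases, against 8 in the Vh7183 join.

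Over mice, the largest clonotype took 27.2% ± 29.6 (SD, n = 4), 23.3% ± 14.1 (SD, n = 5) and 36.2% ± 20.4 (SD, n = 5) of reads in Vh558, Vh7183 and Vhq52. At a common depth of 612 reads, the 6 Vh558 libraries gave 5.57 to 146 expected clonotypes. The Vh7183 libraries gave 12.2 to 32.9 and the Vhq52 libraries 9.41 to 22.4. On the log2 scale the richness was 4.68 ± 1.9 (SD, n = 4), 4.22 ± 0.52 (SD, n = 5) and 3.74 ± 0.58 (SD, n = 5), and the exact permutation test gave an adjusted p of 0.429. The Vh558 mice thus spanned both the poorest repertoire, in mouse 1485, and the richest, in mouse 1536.

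The JH segments were used unequally, with IGHJ4, the segment at the primer, the most frequent in each family. Its share of Vh558 clonotypes was 93.0%, 65.2%, 57.1% and 98.8% in mice 1418, 1432, 1485 and 1536. In Vh7183 it was 55.6%, 75%, 74.3%, 53.8% and 55.6% in mice 1418, 1432, 1484, 1485 and 1536, and in Vhq52 it was 60%, 40%, 50%, 30% and 64%. All 4 mice with both had a lower share in Vhq52 than in Vh558, while the ranges of the families overlapped.

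The means were 78.5% ± 20.4 (SD, n = 4), 62.8% ± 10.8 (SD, n = 5) and 48.8% ± 14.0 (SD, n = 5) (exact p = 0.0586, adjusted p = 0.253). Vh558 exceeded Vhq52 by 25.2 to 34.8 percentage points within mice. In mouse 1485 this rests on 4 of 7 against 3 of 10 clonotypes. The half-widths from counting error for a share near the middle of the scale were 29.6 and 26.3 points in these libraries. Without the sequences shared between mice the means were 78.5%, 59.6% and 33.4%. The difference of Vh558 minus Vhq52 was then 48.8 points, with an adjusted p of 0.0494 by the exact permutation test. Between WT mice, 8 of the 9 sequences shared in Vh7183 and all of those shared in Vhq52 were IGHJ4 joins, and Vh558 held 0 shared sequences. Leaving them out lowers the share in Vh7183 and Vhq52 alone, so the setting itself widens the gap. In that setting the Vhq52 value of mouse 1418, with 6 clonotypes left, was 0%. Joins to IGHJ1, IGHJ2 or IGHJ3 give a longer product from the same primers than IGHJ4 joins, and the part of the gel band in these shares was not tested.

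IGHJ2 was the only JH gene of the 4 whose exact p was under 0.05, and its ranges in Vh558 and Vh7183 did not overlap. Its share in Vh558 was 0.633%, 8.70%, 14.3% and 0.266% in mice 1418, 1432, 1485 and 1536. In Vh7183 it was 33.3%, 15%, 17.1%, 38.5% and 27.8% over the 5 mice in order, and in Vhq52 40%, 13.3%, 3.57%, 30% and 8%. The lowest Vh7183 mouse was above the highest Vh558 mouse, 1 measure of the 32 (3.12%). These values were 15% in mouse 1432 and 14.3% in mouse 1485, from libraries of 20 and 7 clonotypes. For a share near the middle of the scale, counting error in these libraries gave half-widths of 20.1 and 29.6 points.

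The mean IGHJ2 shares were 5.97% ± 6.77 (SD, n = 4), 26.3% ± 10.1 (SD, n = 5) and 19.0% ± 15.4 (SD, n = 5) (exact p = 0.0069, adjusted p = 0.0741). The share of Vh558 minus that of Vh7183 ran from -32.7 to -6.3 percentage points over the 4 mice. Without the shared sequences the means were 5.97%, 30% and 30.8% (exact test, adjusted p = 0.355). The IGHJ2 clonotypes were small: they were 25 of 104 in Vh7183 but held 1.66% of its reads, and no Vh558 clonotype with 10 or more reads used IGHJ2.

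IGHJ3 took 14.3% ± 13.0 (SD, n = 4), 8.16% ± 4.68 (SD, n = 5) and 23.7% ± 16.1 (SD, n = 5) of clonotypes (adjusted p = 0.352, exact permutation test). IGHJ1 took 1.25% ± 2.09, 2.65% ± 3.71 and 8.54% ± 8.57 (adjusted p = 0.379 by the same exact test). For IGHJ3, 4 of 5 mice had a higher share in Vhq52 than in Vh7183, and mouse 1418 had 0% in Vhq52. By reads rather than clonotypes, IGHJ4 held 99.1% of Vh558, 97.2% of Vh7183 and 91.7% of Vhq52 on average over mice (exact p = 0.0185, adjusted p = 0.119).

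**Figure D3:**
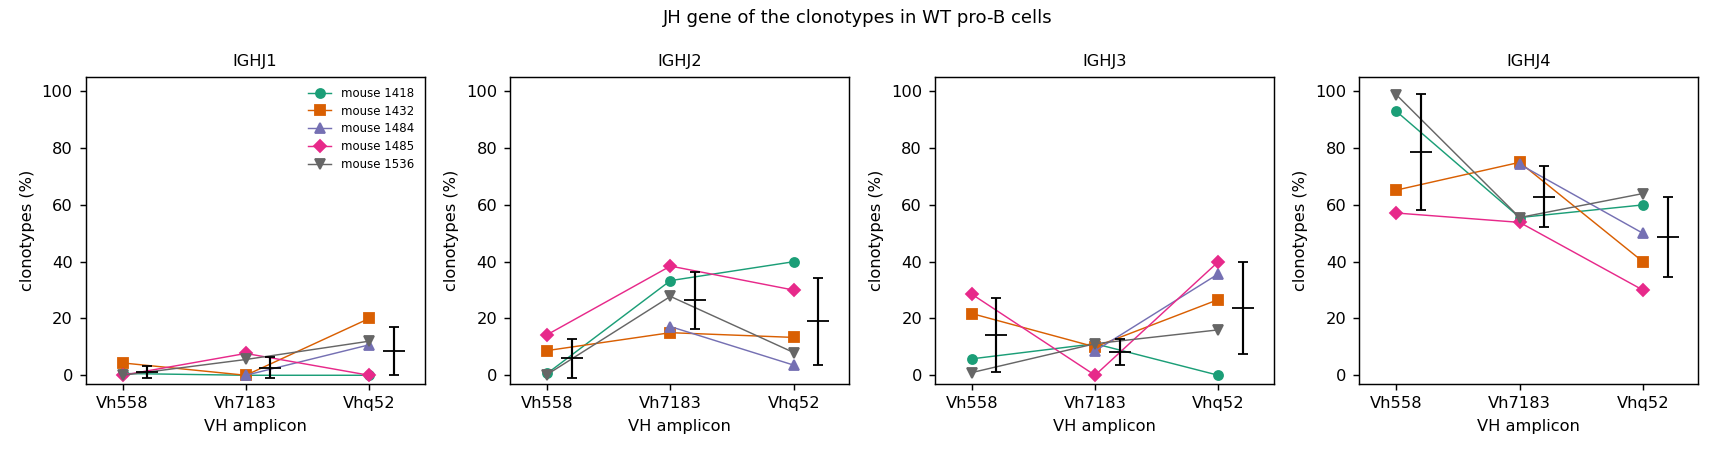
JH usage. Each panel gives the percent of clonotypes that used 1 JH gene in each mouse, with lines joining the amplicons of a mouse and black bars for the mean ± SD over mice. IGHJ4 is lower in Vhq52 than in Vh558 in all 4 mice that have both, and IGHJ2 runs from 15% to 38.5% in Vh7183 and from 0.266% to 14.3% in Vh558.

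D segments were called in 88.9% ± 2.99 (SD, n = 4), 87.1% ± 11.1 (SD, n = 5) and 89.6% ± 10 (SD, n = 5) of clonotypes in Vh558, Vh7183 and Vhq52 (exact p = 0.896, adjusted p = 0.896). The single gene of the DFL16 family, IGHD1-1, took 13.8%, 4.76%, 66.7% and 36.0% of the Vh558 D calls in mice 1418, 1432, 1485 and 1536. It took 56.3%, 30%, 35.5%, 55.6% and 37.5% in Vh7183 over the 5 mice in order, and 58.3%, 41.7%, 10.7%, 10% and 18.2% in Vhq52. The values of Vh7183 lay within the spread of both other families.

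The DFL16 means were 30.3% ± 27.6 (SD, n = 4), 43.0% ± 12.1 (SD, n = 5) and 27.8% ± 21.4 (SD, n = 5), and the exact p was 0.512 (adjusted p = 0.606). The DSP2 family took 48.0% ± 23.4, 39.1% ± 12 and 57.0% ± 26.0, with the same p of 0.512. Within mice the DSP2 share in Vhq52 minus that in Vh7183 was higher in 3 of 5 mice and lower in 2. DST4 took 6.61%, 10.8% and 5.67% on average, and DQ52 8.77%, 7.08% and 6.05%, with adjusted p of 0.645 and 0.828.

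Of single D genes, IGHD2-4 followed IGHD1-1 in the pooled Vh558 calls, with 91 of 425 D calls against 106. In Vhq52 it had 16 of 84 calls against 20, and in Vh7183 it had 10 of 92 against 37. Over Vh558 mice the IGHD2-4 share averaged 15.4% against 13.2% for IGHD2-6, but 9.23% against 12.6% without mouse 1418. With near-identical sequences merged these 2 means were 12.1% and 12.9%. IGHD2-6 had 44, 9 and 12 calls in Vh558, Vh7183 and Vhq52, IGHD2-7 had 41, 5 and 8, IGHD2-3 had 34, 10 and 8, and IGHD2-8 had 19, 5 and 8. IGHD3-2 had 31, 4 and 3 calls, IGHD4-1 (DQ52) 22, 8 and 4, and IGHD3-1 4, 4 and 2. IGHD5-7 was called in 14 Vh558 clonotypes and in 0 of the other families, and IGHD5-4 in 7 of Vh558 and 3 of Vhq52. These last 2 genes rest on short alignments: 2 of the 14 IGHD5-7 calls and 1 of the 7 IGHD5-4 calls in Vh558 had at least 5 bases inside the D gene itself, against 102 of the 106 IGHD1-1 calls.

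The pairing of D with J is given as counts, since the clonotypes of a mouse are not replicates. Among Vh558 clonotypes with a D, DFL16 made up 103 of 401 IGHJ4 joins (25.7%) and 3 of 24 joins to IGHJ1, IGHJ2 or IGHJ3 (12.5%). In Vh7183 it made up 27 of 62 (43.5%) and 10 of 30 (33.3%). In Vhq52 it made up 6 of 41 (14.6%) and 14 of 43 (32.6%). Within mice, the DFL16 share was higher among IGHJ4 joins in 2 of 4 mice in Vh558, 5 of 5 in Vh7183 and 1 of 5 in Vhq52. Of the 103 Vh558 joins 71 came from mouse 1536, and of the 24 upstream joins 13 came from mouse 1418. Of the 14 Vhq52 joins 6 came from mouse 1418, in which 6 of 6 upstream joins and 1 of 6 IGHJ4 joins used DFL16.

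DSP2 was the leading D family in IGHJ4 joins of Vhq52, with 29 of 41 (70.7%), and made up 23 of 43 upstream joins (53.5%). In Vh558 it was 216 of 401 (53.9%) and 13 of 24 (54.2%), and in Vh7183 26 of 62 (41.9%) and 13 of 30 (43.3%). In Vhq52, 13 of the 29 came from mouse 1484, where they were 13 of 14 IGHJ4 joins with a D. DQ52 was found in 0 of 41 IGHJ4 joins and 4 of 43 upstream joins of Vhq52, and in 20 of 401 and 2 of 24 of Vh558.

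The reading frame of D was compared for IGHD1 and IGHD2 calls with at least 5 bases inside the gene. Each of these genes codes for a tyrosine-rich stretch in one frame and a hydrophobic one in another. The remaining frame holds a stop codon in all of them except IGHD2-7. The frame called hydrophobic was set by its offset from the tyrosine frame. In the IGHD2 genes the remaining frame had the higher mean Kyte-Doolittle hydropathy, for example 3.8 against 1.14 in IGHD2-6. For IGHD1-1 the tyrosine and hydrophobic frames read YYYGSSY and FITTVVA. The tyrosine frame was used in 265 of 322 such Vh558 clonotypes (82.3%), 54 of 69 in Vh7183 (78.3%) and 41 of 70 in Vhq52 (58.6%). The hydrophobic frame was used in 24, 10 and 22 of them.

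By mouse the tyrosine frame took 89.2%, 80%, 50% and 75.5% in Vh558 of mice 1418, 1432, 1485 and 1536. It took 66.7%, 92.9%, 80%, 85.7% and 62.5% in Vh7183 and 10%, 66.7%, 76%, 37.5% and 66.7% in Vhq52 over the 5 mice in order. Vhq52 was below Vh558 in 4 of 4 mice, by 8.88 to 79.2 percentage points, and the ranges overlapped. The means of 73.7% ± 16.8 (SD, n = 4), 77.5% ± 12.8 (SD, n = 5) and 51.4% ± 27.3 (SD, n = 5) were compared within mice (exact p = 0.129, adjusted p = 0.352). Without mouse 1418 the mean difference of Vh558 minus Vhq52 was 11.6 percentage points, against 28.5 with it. The 50% of Vh558 mouse 1485 rests on 4 clonotypes and the 10% of Vhq52 mouse 1418 on 10.

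**Figure D4:**
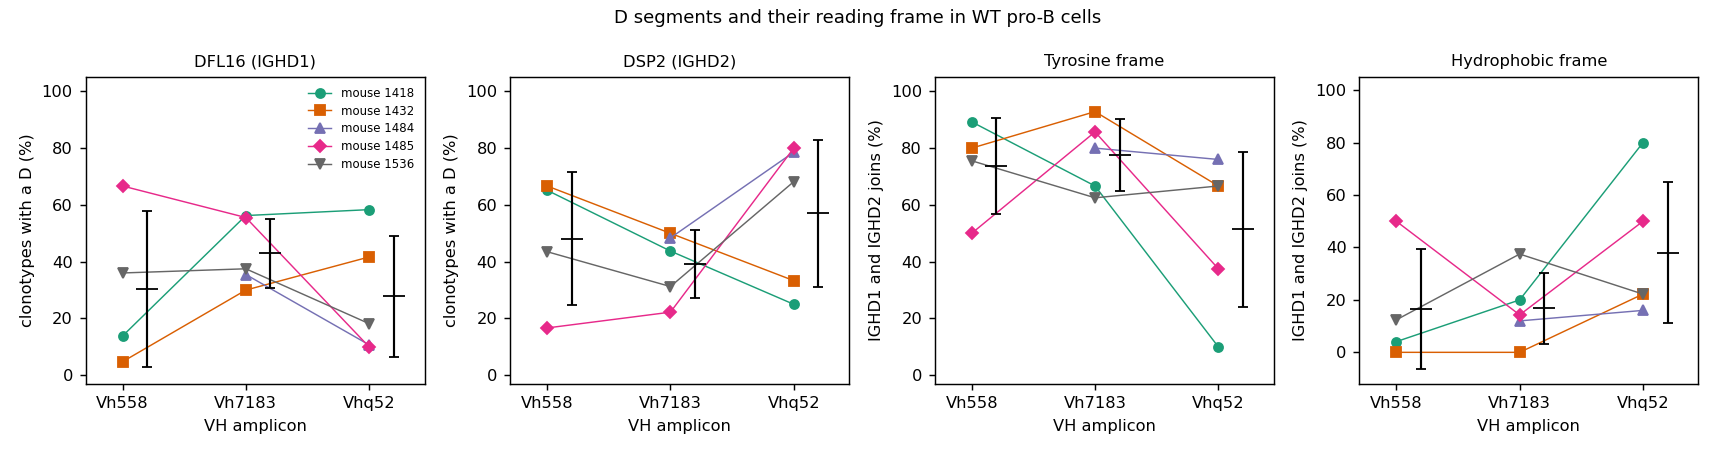
D family and D reading frame. The left panels give DFL16 and DSP2 as percent of clonotypes with a D, and the right panels the tyrosine and hydrophobic frames as percent of IGHD1 and IGHD2 joins, by mouse, with lines joining the amplicons of a mouse and black bars for the mean ± SD. The tyrosine frame in Vhq52 ran from 10% to 76%, and the DFL16 share crossed between mice rather than moving one way.

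In-frame joins were counted in the separate lists of each library, which, unlike the series table, hold joins out of frame or with a stop codon. The in-frame share without a stop was 83.0%, 74.4%, 54.5% and 82.9% of Vh558 clonotypes in mice 1418, 1432, 1485 and 1536. In Vh7183 it was 39.3%, 70.2%, 57.7%, 42.6% and 28.6% over the 5 mice in order, and in Vhq52 45.5%, 31.9%, 32.7%, 35.4% and 26.7%. Every Vh558 mouse was above every Vhq52 mouse, the other of the 2 measures in 32 (6.25%) with separate ranges for that pair.

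The means were 73.7% ± 13.4 (SD, n = 4), 47.7% ± 16.4 (SD, n = 5) and 34.4% ± 6.93 (SD, n = 5) (exact p = 0.0100, adjusted p = 0.0802). Within mice Vh558 exceeded Vhq52 by 19.2 to 56.3 percentage points. These lists name genes from another species' set, and the CDR3 ends they report moved with the family: both the cysteine codon TGT at the start and the tryptophan codon TGG at the end were present in 92.0% of Vh558, 88.6% of Vh7183 and 61.9% of Vhq52 entries. Among the entries with both, the in-frame means were 72.1%, 46.9% and 44.3% (exact p = 0.0802, adjusted p = 0.321). Entries with a single read were 42.1%, 46.3% and 52.3% of the lists.

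The residues between the conserved ends are called the loop here, and the basic ones are described first. Arginine stood at CDR3 position 3 in 80.3%, 78.3%, 85.7% and 81.3% of Vh558 clonotypes of mice 1418, 1432, 1485 and 1536. In Vh7183 it did in 72.2%, 95%, 82.9%, 92.3% and 83.3%, and in Vhq52 in 60%, 86.7%, 39.3%, 60% and 44%, over the 5 mice in order. Only mouse 1432 had a Vhq52 value within the range of the other families.

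The means were 81.4% ± 3.14 (SD, n = 4), 85.1% ± 9 (SD, n = 5) and 58.0% ± 18.5 (SD, n = 5) (exact p = 0.0170, adjusted p = 0.0905). Vhq52 was below Vh7183 in 5 of 5 mice, by 8.33 to 43.6 percentage points. Without the shared sequences the means were 81.4%, 83.1% and 65.7% (exact test, adjusted p = 0.355). In Vhq52, lysine stood at that position in 28 of 93 clonotypes (30.1%), against 7 of 476 in Vh558 and 2 of 104 in Vh7183. Of the 28, 19 were IGHV2-3, 5 were IGHV2-5 and 4 were IGHV2-9, genes whose position 3 is read from the lysine codon shown above.

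Lysine made up 0.801%, 0.342%, 2.22% and 0.53% of the loop in Vh558 of mice 1418, 1432, 1485 and 1536. It made up 0.429%, 1.14%, 1.12%, 0% and 0.448% in Vh7183 and 4.65%, 4.07%, 2.75%, 5.41% and 5.67% in Vhq52 over the 5 mice in order. All Vhq52 values lay above all values of the other families, which held for 1 of the 20 amino acids (5%) in each of these pairs. The means were 0.973% ± 0.854 (SD, n = 4), 0.627% ± 0.492 (SD, n = 5) and 4.51% ± 1.17 (SD, n = 5) (exact p = 0.0224 within mice, adjusted p = 0.165). With the 14 values compared without mouse as a block the adjusted p was 0.0300, and lysine was then the 1 amino acid past the threshold.

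The lysines were then placed by the part of the join that encodes them. Of the 50 lysines in Vhq52 loops, 27 had a codon wholly in the V part, 14 a codon partly in it and 9 a codon beyond it. In Vh558 the counts were 0, 5 and 35 of 40, and in Vh7183 0, 2 and 8 of 10. When only residues whose codon holds a base outside the V and J parts were counted, lysine made up 2.04%, 1.26% and 4.92% of them (exact p = 0.0401, adjusted p = 0.160). That count still holds the codons partly in V, such as the 14 of Vhq52. Lysines with a codon beyond V numbered 9 over 93 Vhq52 clonotypes, 35 over 476 in Vh558 and 8 over 104 in Vh7183. Without the shared sequences the loop means were 0.973%, 0.489% and 3.59% (exact test, adjusted p = 0.241).

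Arginine over the whole loop was 9.50% ± 1.11 (SD, n = 4), 10.4% ± 0.984 (SD, n = 5) and 6.88% ± 2.37 (SD, n = 5) (exact p = 0.0247, adjusted p = 0.165). Vhq52 was below Vh7183 in 5 of 5 mice, by 0.942 to 5.34 percentage points. With shared sequences left out the means were 9.50%, 10% and 7.93% (exact p = 0.164). Aspartate was 12% ± 2.49, 10.9% ± 1.37 and 9.11% ± 1.25 (adjusted p = 0.27 by the exact permutation test). It was lower in Vhq52 than in Vh558 in 4 of 4 mice. The net charge of the loop averaged -0.46 ± 0.75 (SD, n = 4), -0.16 ± 0.27 (SD, n = 5) and 0.14 ± 0.35 (SD, n = 5) charges (exact p = 0.140, adjusted p = 0.352).

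Tyrosine, which D and J segments encode often, made up 20.3% ± 2.19 (SD, n = 4), 23.2% ± 2.85 (SD, n = 5) and 19.2% ± 5.05 (SD, n = 5) of the loop (exact p = 0.282, adjusted p = 0.429 among the 32 measures). In Vhq52 it was 13.5% in mouse 1485 and 14.5% in mouse 1432, and 19.8%, 24.5% and 23.6% in mice 1418, 1484 and 1536. Leaving out shared sequences, the Vhq52 mean was 16.5% (exact p = 0.109, adjusted p = 0.355). Glycine was 8.34% ± 2.36, 8.20% ± 0.368 and 7.90% ± 2.73 (adjusted p = 0.881 by the exact permutation test). The Vh7183 minus Vhq52 difference in glycine ran from -3.46 to 3.07 percentage points over mice.

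The mean Kyte-Doolittle hydropathy of the loop, which is higher for more hydrophobic residues, was -0.70 ± 0.12 (SD, n = 4), -0.83 ± 0.12 (SD, n = 5) and -0.60 ± 0.27 (SD, n = 5). The exact p was 0.184 and the adjusted p 0.369. Vhq52 was above Vh7183 in 5 of 5 mice, with differences of Vh7183 minus Vhq52 from -0.53 to -0.022 units. Among clonotypes with 10 or more reads the mean of Vhq52 minus Vh7183 was 0.363 units, and the exact test over the 3 families gave an adjusted p of 0.0494.

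**Figure D5:**
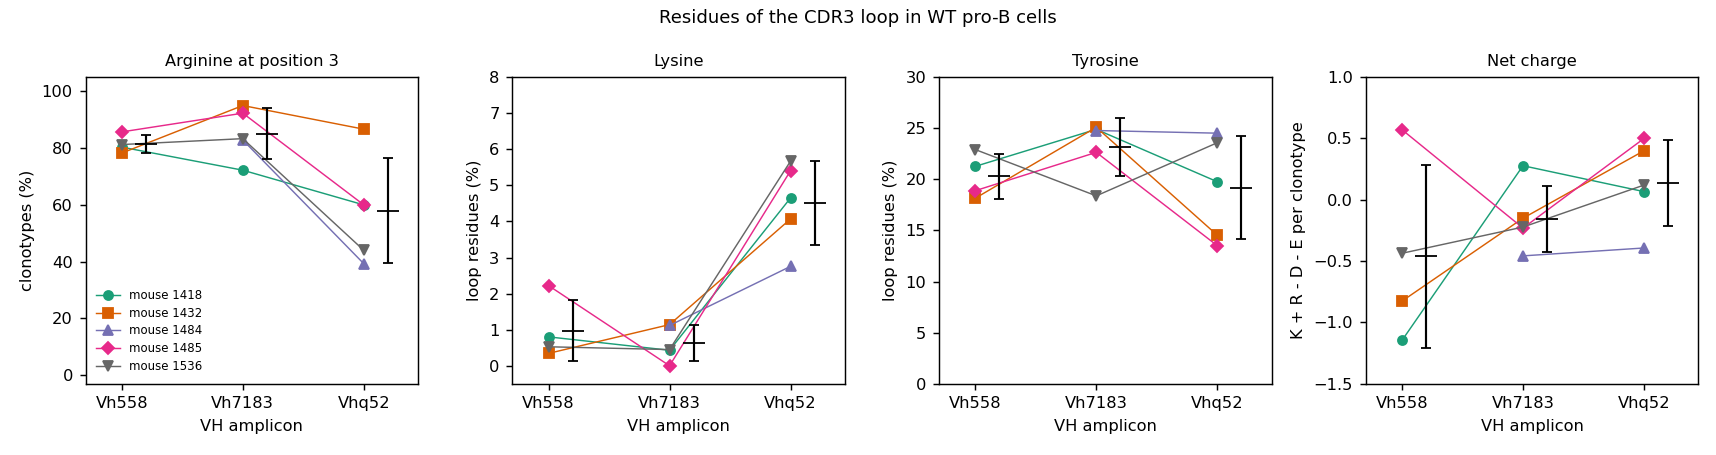
Loop residues. The panels give arginine at CDR3 position 3 (percent of clonotypes), lysine and tyrosine (percent of loop residues) and net charge (lysine plus arginine minus aspartate and glutamate per clonotype) by mouse, with lines joining the amplicons of a mouse and black bars for the mean ± SD. Lysine is 2.75% to 5.67% in Vhq52 and 0% to 2.22% in the other amplicons.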

How the data were processed

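The authors sorted pro-B cells, amplified genomic DNA by VH family and sequenced the products, per the labels' protocols. The deposited series table lists productive CDR3s with the read count of each, its fraction of the library and its alignment positions, and no entry under 2 reads. It is MiXCR output, per the series title and the column layout; version, build and settings were not given in the sources used here. Another WT list per library holds read counts of all joins. Knockout libraries served only to find sequences shared between mice, for which 2 of them were left out, a repeat run of one sample and one that matched no sample. Bases lost, palindromic, inserted and kept were computed from the deposited positions, because the deposited letter columns were shifted by 1 base from them. The samples are paired by mouse, since the labels give each library's mouse number; over 13 same-mouse pairs the 32 standardised deviations correlated from -0.43 to 0.48, above 0.1 in 5. The spread measures these mice. Tests were exact permutations in Python 3.11.15 (numpy 2.4.6, scipy 1.17.1) with Benjamini-Hochberg adjustment, tested on simulated data. Named were all JH genes, D genes with at least 10 clonotypes, the leading 5 V genes per amplicon, largest and shared clonotypes, and tyrosine, glycine, arginine and aspartate; lysine was named after its values were seen, as were single examples of V genes and sequences. The members and lists were chosen with earlier results of these data known. Alternatives included reads as weights, at least 10 reads, IGHJ4 joins only and no shared sequences. Merging near-identical sequences, D alignments inside the gene and leaving out IGHV6 and IGHV7 were added after seeing the data. So were lists with both conserved ends and amino acids whose codon holds a base outside V and J.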

Additional observations from a re-analysis of the deposited data

How the results depend on the processing

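Few clonotypes and 5 mice limit all comparisons: with 32 measures and a smallest possible p of 0.00077 within mice, only large and uniform differences could pass. Of 458 alternatives of the 32 measures, 447 kept both the direction and the side of the threshold, 2 moved past it and 9 turned the direction. The first was the IGHJ4 share without shared sequences (Vh558 minus Vhq52, 48.8 percentage points against 30). Sequences shared between WT mice were nearly all IGHJ4 joins, with 0 in Vh558, so that filter itself widens the difference. The second was loop hydropathy with at least 10 reads (Vhq52 minus Vh7183, 0.363 units against 0.224). Each had an adjusted p of 0.0494 by the exact permutation test. The D segment share (Vhq52 minus Vh7183, 2.48 points) turned to -5.87 weighted by reads and -3.35 among IGHJ4 joins. Richness (Vh558 minus Vhq52, 1.13 log2 units) turned to -0.11 without shared sequences, where 2 mice kept enough reads. D 5′ trimming turned to -0.042 bases with at least 10 reads and -0.16 without shared sequences, the DST4 share to -3.41 points among IGHJ4 joins, and the DQ52 share to -2.38 points weighted by reads; the cause was not tested.

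Without the replicate block the untrimmed V share differed by 39.2 points (Vh7183 minus Vhq52), adjusted p = 0.0601 by the exact permutation test. That fit changed 1 call: 1 amino acid, lysine, was past the threshold against 0 with the block. Of the D genes, 0 were past it in each fit, and 0 of 11 had an exact p at or under 0.05 before adjustment.

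Leaving out each mouse in turn moved the D segment share between -4.59 and 8.11 points, the lowest without mouse 1485, and the DQ52 share between -1.36 and 6.52, the lowest also without mouse 1485; the other measures kept their direction. The untrimmed V share ran from 33.5 to 46.0 points, the IGHJ4 share from 28.4 to 31.6, the in-frame share from 33.1 to 45.4 and IGHJ2 from 19.3 to 28.1. Other measures moved by over 1.5 times: the tyrosine frame ran from 11.6 to 35.0 points, the hydrophobic frame from 10.7 to 36.0, inserted bases from 0.931 to 2.32 and V to D inserted bases from 0.266 to 1.67, each lowest without mouse 1418. Adjusted p was never at or under 0.05. Merging near-identical sequences left 560 of 673 clonotypes and changed no call. By family it left 379 of 476 in Vh558, 100 of 104 in Vh7183 and 81 of 93 in Vhq52, so pooled Vh558 counts were reduced most. The repeat Vh558 libraries shared 20 sequences in mouse 1418, of 79 and 126, and 7 in mouse 1536, of 53 and 188. No IGHJ4 share was taken from the lists of single libraries, whose J names belong to another species' set.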
